A study of Homo sapiens with 6 samples.

Results

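The protein subunits of the mitochondrial ribosome are encoded in the nucleus, and 76 of the 22925 genes in the deposited table carry a mitochondrial ribosomal protein symbol, that is MRPL or MRPS followed by a number and at most 1 letter from A to C. By symbol, 48 are large subunit (MRPL) genes and 28 are small subunit (MRPS) genes. Of these, 75 had a mean normalized count of at least 5 and were tested, 47 of the large and 28 of the small subunit, and the gene that was not tested is MRPL30. MRPS21 and MRPL45 were not analysed here. The measurements come from HT-1080, a long-established line of human fibrosarcoma cells, kept in DMEM with serum. One group of 3 libraries received 20 μM PhenDC3 in 1% DMSO for 48 h, and the other group of 3 libraries received 1% DMSO alone for 48 h. Both groups therefore carry the solvent, and PhenDC3 is known as a ligand of G quadruplexes, folded structures in which guanines of DNA or RNA stack in planes. Poly(A) RNA was sequenced from stranded libraries.

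The mitochondrial ribosome translates the few messages of mitochondrial DNA, which encode core subunits of the respiratory chain and of ATP synthase. Its rRNAs are transcribed inside the organelle, whereas its proteins are made in the cytosol and imported, so that assembly draws on both genomes. The small subunit decodes the message, the large subunit forms peptide bonds and delivers the product to the inner membrane through its exit tunnel, and many of the proteins have no counterpart in bacteria.

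The recovered reads numbered between 7371056 and 9386691 in the PhenDC3 libraries and between 12574952 and 14292987 in the DMSO libraries, so depth did not overlap between the groups. Reads from mitochondrial DNA made up 15.4% ± 0.053 of PhenDC3 reads and 3.87% ± 0.14 of DMSO reads (SD, n = 3 each). Markers of mesenchymal cells, from which a fibrosarcoma derives, were present, with VIM at 13620 ± 153 normalized counts in PhenDC3 cells and 25153 ± 2162 in DMSO cells, the highest of the list. All 8 mesenchymal markers passed the filter on low values, and of them VIM, COL4A1, CDH2 and SPARC were lower, TIMP2, COL1A1 and MMP2 higher, and MMP14 did not pass the test. The filter also left 4 epithelial markers, of which ELF3 and KRT8 were higher and KRT18 and CLDN4 did not pass the test. It left EGFL7, an endothelial marker that did not pass the test, and CD68, an immune marker that was higher. Of these, ELF3 averaged 10.6 ± 2.4 in PhenDC3 cells and was listed at 0 in 2 DMSO libraries, and CD68 averaged 15.4 ± 6.5 in PhenDC3 cells and 5.98 ± 1.6 in DMSO cells. ELF3 passed the filter on low values only through the PhenDC3 libraries. The part of these markers in the results was not tested. DMSO replicate 3 stood apart from its group. It was above both other DMSO libraries in 64 of the 75 tested members, 43 of 47 large and 21 of 28 small subunit genes, where 40.7% of all tested genes showed this. Counts and medians are given with and without it, and the members whose call it decides are named below.

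Most of these messages were less abundant after PhenDC3, by modest amounts. Of the 75 tested members, 43 were lower in PhenDC3 cells and 5 were higher at an adjusted p under 0.05 (limma across all 16482 tested genes, Benjamini-Hochberg), and 27 did not pass. Among all tested genes 30.4% were lower and 29.2% higher, and 59.6% were called in all. The share of members called, 64.0%, was thus near that of all genes, and the members differed from all genes in direction, with 57.3% lower and 6.67% higher. The median log2 change was -0.25 over the members and -0.02 over all tested genes. The middle of the distribution, between the quartiles, ran from -0.49 to -0.09 for the members and from -0.42 to 0.43 for all tested genes. In 46 members every PhenDC3 library lay below every DMSO library, and in 4 every one lay above, where 32.6% and 31.5% of all tested genes did so. Falls of more than 1.5-fold were found in 12 of the 75 tested members and in 2911 of all 16482 tested genes (17.7%). The members' share of such falls was thus no larger than that of all genes. Run on the recovered reads, edgeR called 42 members lower and 5 higher, where 32.1% and 30.9% of its tested genes were called and 63.0% in all. DESeq2 called 36 lower and 5 higher, where 19.3% and 19.7% of its tested genes were called and 39.0% in all, and the authors' deposited table gave the same counts and shares. In bulk RNA, a lower share of cells expressing a gene and less RNA per cell cannot be told apart.

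**Figure D1:**
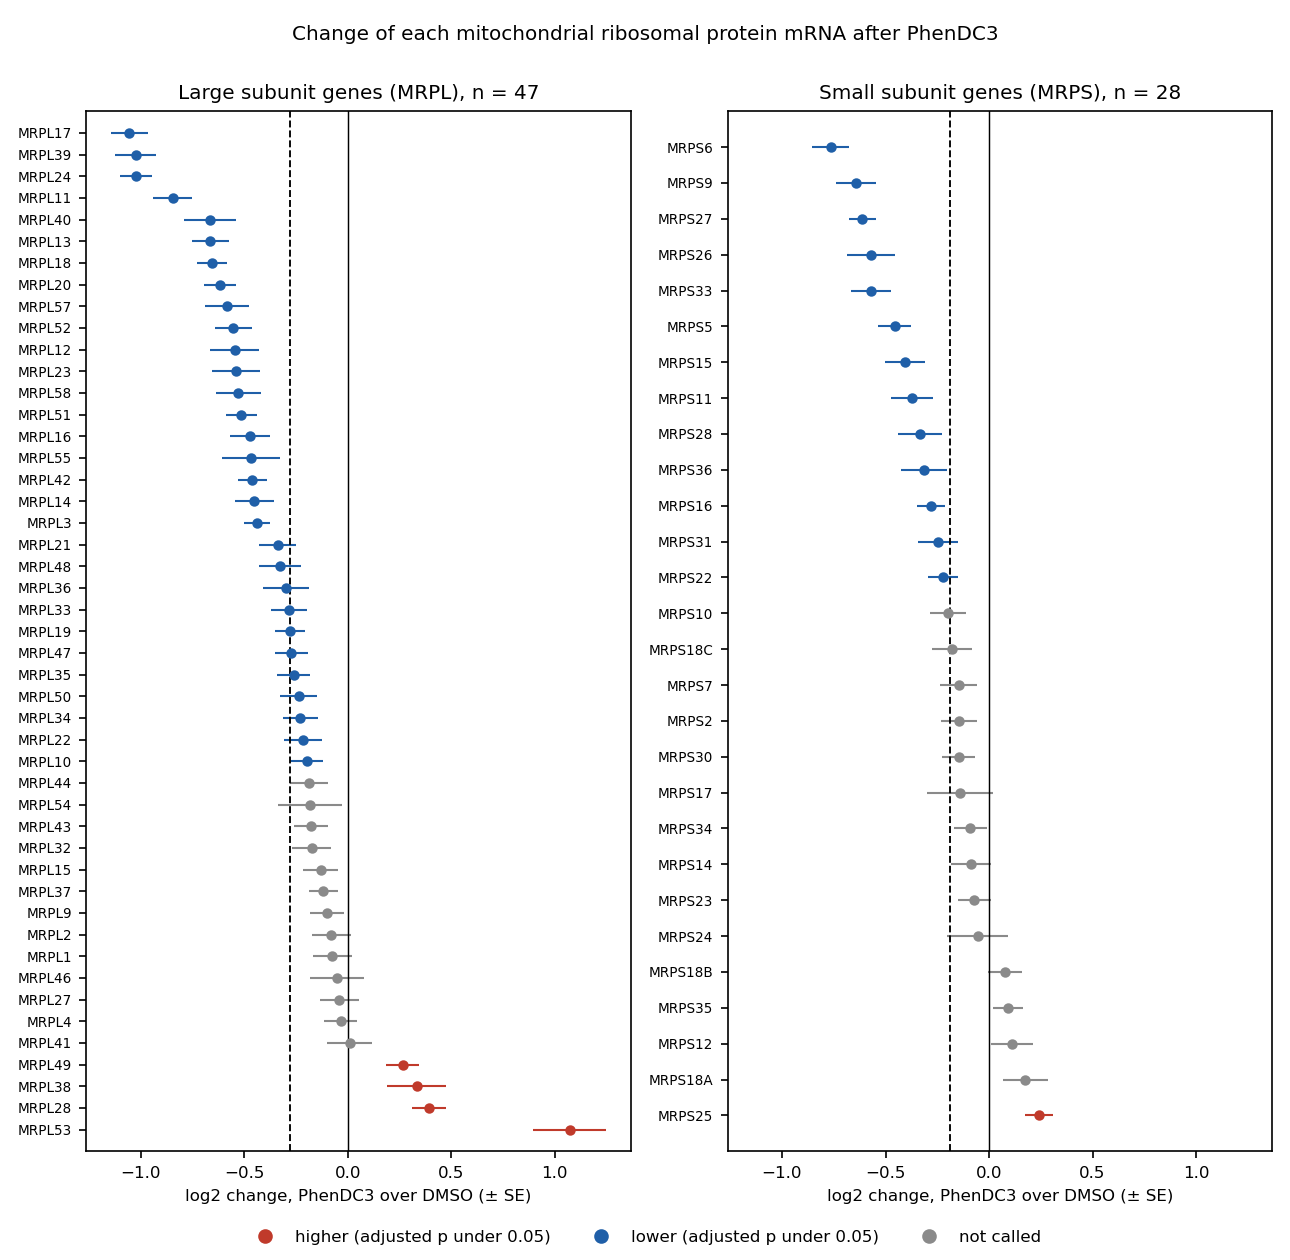
Log2 change of each tested member in PhenDC3 cells over DMSO cells (point, limma estimate; bar, ± SE) for the 47 large subunit genes on the left and the 28 small subunit genes on the right, with the dashed line at the median of each subunit. Most points lie left of 0, MRPL17, MRPL39 and MRPL24 lie beyond -1, and MRPL53 alone lies beyond 1 on the other side.

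Summed over the members, the normalized count was 32380 ± 532 in PhenDC3 cells and 39512 ± 2878 in DMSO cells, a ratio of 0.819. The sums were 32304, 31889 and 32946 in PhenDC3 replicates 1 to 3 and 36943, 38970 and 42622 in DMSO replicates 1 to 3. The groups did not overlap, and the highest sum was that of DMSO replicate 3. As a share of all gene reads the members took 0.294% ± 0.0052 in PhenDC3 cells and 0.402% ± 0.028 in DMSO cells. With mitochondrially encoded reads left out of the total, the share was 0.347% ± 0.0062 in PhenDC3 cells and 0.418% ± 0.029 in DMSO cells (SD, n = 3 each).

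Promoters of 8 members are shown first, because the results return to them. MRPL17, MRPS9, MRPL57, MRPS33, MRPL14 and MRPL36 are the members tested by limma whose promoter holds the core motif of NRF1, an activator of nuclear genes for mitochondrial proteins, and MRPL53 and MRPL28 had the largest rises among the tested members. MRPL30, which was not tested for its few reads and was higher in PhenDC3 libraries, also holds the NRF1 core and is not shown. The sequences are from RefSeq (GRCh38.p14). Each is 190 bases, 5′ to 3′ on the strand of the gene, with 160 bases before the start and 30 from the start on. Capitals mark the cores bound by NRF1 (GCGCA and GCGC with any base between them), by ETS family factors (CCGGAAG) and by YY1 (AAGATGGC), on either strand. The positions are chr11:6683311-6683500 (minus strand) for MRPL17, chr2:105037909-105038098 (plus) for MRPS9, chr13:21176498-21176687 (plus) for MRPL57, chr7:141014923-141015112 (minus) for MRPS33, chr6:44127279-44127468 (minus) for MRPL14 and chr5:1799808-1799997 (minus) for MRPL36. The others are chr2:74472651-74472840 (minus) for MRPL53 and chr16:370509-370698 (minus) for MRPL28.
MRPL17: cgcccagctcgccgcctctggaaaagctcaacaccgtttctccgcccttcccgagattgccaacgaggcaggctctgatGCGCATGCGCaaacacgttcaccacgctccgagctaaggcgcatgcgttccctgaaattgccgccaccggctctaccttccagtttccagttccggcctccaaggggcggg
MRPS9: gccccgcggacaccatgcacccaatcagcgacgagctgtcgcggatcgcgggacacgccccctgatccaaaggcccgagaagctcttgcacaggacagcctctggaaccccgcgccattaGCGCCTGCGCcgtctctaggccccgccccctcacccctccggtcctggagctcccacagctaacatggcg
MRPL57: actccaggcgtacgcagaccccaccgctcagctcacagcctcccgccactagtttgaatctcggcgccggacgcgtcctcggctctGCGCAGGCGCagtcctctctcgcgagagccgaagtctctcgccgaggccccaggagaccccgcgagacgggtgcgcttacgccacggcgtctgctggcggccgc
MRPS33: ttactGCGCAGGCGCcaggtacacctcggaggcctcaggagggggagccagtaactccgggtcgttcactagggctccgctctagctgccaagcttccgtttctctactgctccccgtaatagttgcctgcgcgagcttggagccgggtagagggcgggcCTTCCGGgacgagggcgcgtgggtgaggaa
MRPL14: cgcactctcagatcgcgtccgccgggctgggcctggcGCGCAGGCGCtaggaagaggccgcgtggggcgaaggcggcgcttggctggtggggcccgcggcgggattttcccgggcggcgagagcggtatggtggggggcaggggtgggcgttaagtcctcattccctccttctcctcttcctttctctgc
MRPL36: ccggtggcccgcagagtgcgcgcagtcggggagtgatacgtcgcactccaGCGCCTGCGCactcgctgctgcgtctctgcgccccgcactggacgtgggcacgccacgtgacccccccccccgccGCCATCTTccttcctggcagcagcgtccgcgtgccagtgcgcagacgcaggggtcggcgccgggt
MRPL53: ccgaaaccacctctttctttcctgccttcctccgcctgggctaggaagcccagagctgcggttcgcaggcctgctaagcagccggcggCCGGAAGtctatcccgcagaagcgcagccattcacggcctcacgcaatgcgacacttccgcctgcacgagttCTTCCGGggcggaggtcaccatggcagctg
MRPL28: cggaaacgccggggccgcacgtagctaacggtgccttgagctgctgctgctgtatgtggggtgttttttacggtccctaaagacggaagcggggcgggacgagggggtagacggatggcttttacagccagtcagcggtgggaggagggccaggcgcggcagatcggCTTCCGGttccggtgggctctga
The NRF1 core of MRPL17, the member with the deepest fall, reads GCGCATGCGC, which is the same on both strands, and its shown promoter holds neither other core. In MRPL36 the YY1 core lies on the opposite strand, as GCCATCTT, and in MRPS33 an ETS core lies at the start, as CTTCCGG. The promoters of MRPL53 and MRPL28 hold an ETS core close to the start, and MRPL53 holds the ETS core on each strand.

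The deepest falls among the tested members were in the large subunit. MRPL17 (ENSG00000158042, chromosome 11) is the counterpart of bacterial L17, a protein near the mouth of the exit tunnel. Its promoter, shown above, holds the NRF1 core, which those of the next deepest falls, MRPL39, MRPL24, MRPL11 and MRPS6, do not hold. It had normalized counts of 338, 393 and 401 in the PhenDC3 libraries, against 716, 775 and 866 in the DMSO libraries. Its mean fell to 0.481 of the DMSO mean (log2 change -1.05, SE 0.09, adjusted p = 2.93e-09 by limma). MRPL24 (ENSG00000143314, chromosome 1), whose bacterial counterpart starts assembly of the large subunit and also lies by the tunnel, had 372, 353 and 399 in PhenDC3 libraries and 738, 762 and 780 in DMSO libraries. The groups were far apart and each was tight, with a log2 change of -1.02 (SE 0.08, adjusted p = 6.79e-10). MRPL39 (ENSG00000154719, chromosome 21), a mitochondria-specific protein related to threonyl-tRNA synthetases, had 160, 147 and 164 in PhenDC3 libraries and 311, 302 and 350 in DMSO libraries. Its log2 change was -1.02 (SE 0.10, adjusted p = 2.49e-08). These were the only 3 members whose PhenDC3 mean was under 0.5 of the DMSO mean, and none of the 3 shares annotated exon bases with another gene.

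MRPL11 (ENSG00000174547, chromosome 11), at the base of the stalk where translation factors dock, had 238, 258 and 269 in PhenDC3 libraries, against 409, 455 and 516 in DMSO libraries. It fell to 0.554 of the DMSO mean (log2 change -0.85, SE 0.10, adjusted p = 2.18e-07). MRPL12, the stalk protein that also binds the mitochondrial RNA polymerase, had 220, 183 and 209 in PhenDC3 libraries and 276, 263 and 363 in DMSO libraries. The groups did not overlap, and DMSO replicate 3 was well above the other DMSO libraries. The log2 change of MRPL12 was -0.55 (SE 0.12, adjusted p = 0.000425), or -0.40 without that library (adjusted p = 0.00162), and 68.2% of its annotated exon bases are shared on the same strand with another coding gene model, so its reads could have been split or left out in counting. MRPL10, which anchors the stalk in bacteria, changed less, with 598 ± 24 in PhenDC3 cells and 686 ± 54 in DMSO cells (log2 change -0.20, adjusted p = 0.0354). The call of MRPL10 was lost in DESeq2 and the authors' deposited table (adjusted p = 0.0862 there), with thinned reads, upper quartile scaling or no variance trend, and without DMSO replicate 3 or any 1 of the PhenDC3 replicates.

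The other large subunit genes among the deepest falls were MRPL40, MRPL13, MRPL18, MRPL20 and MRPL57. MRPL40, a mitochondria-specific protein of the central protuberance, averaged 190 ± 33 normalized counts in PhenDC3 cells and 302 ± 47 in DMSO cells (log2 change -0.67). MRPL18, the counterpart of a bacterial 5S rRNA binding protein, averaged 519 ± 18 in PhenDC3 cells and 818 ± 38 in DMSO cells (log2 change -0.66). MRPL20, whose bacterial counterpart is needed early in assembly of the large subunit, averaged 530 ± 24 in PhenDC3 cells and 815 ± 68 in DMSO cells (log2 change -0.62). In each of these the PhenDC3 libraries lay below all DMSO libraries. MRPL13 changed by -0.66 and MRPL57 by -0.58, and the adjusted p of the group ran up to 0.00011, that of MRPL40 (SD, n = 3 each, limma). MRPL58, the peptidyl-tRNA hydrolase that rescues stalled ribosomes and is also a structural subunit, averaged 197 ± 21 in PhenDC3 cells and 285 ± 33 in DMSO cells (log2 change -0.53, adjusted p = 0.000287).

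MRPL3, a protein of the conserved core that reaches toward the peptidyl transferase centre, was the most abundant member. Its normalized counts were 1631, 1693 and 1645 in PhenDC3 libraries and 2160, 2264 and 2310 in DMSO libraries, with no overlap. Per kilobase of its longest coding transcript this was 1137 in PhenDC3 cells and 1541 in DMSO cells, the highest level of any member on that scale in DMSO cells. The log2 change was -0.44 (SE 0.06, adjusted p = 3.51e-06). Its processed pseudogene MRPL3P1, whose reads counting could have exchanged with those of MRPL3, changed by -0.49. Next in level per kilobase in DMSO cells were MRPL42, MRPL33 and MRPS27, at 1286, 1129 and 1014. The members lowest per kilobase were MRPL30, MRPL53, MRPS17 and MRPL38, at 0.386, 24.2, 32.5 and 47.2 in DMSO cells. In that order, they share 19.5%, 45.2%, 27.0% and 37.5% of their exon bases on the same strand with other coding gene models. Their reads could have been split or left out in counting, and their levels may be understated. MRPL33, among the highest, shares 21.1%. The part of shared bases in these levels was not tested.

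In the small subunit 13 of 28 genes were lower, 46.4% where 30.4% of all tested genes were, the deepest fall being that of MRPS6. MRPS6 (ENSG00000243927, chromosome 21), the counterpart of bacterial S6 on the platform, had 226, 235 and 240 normalized counts in PhenDC3 libraries, against 366, 397 and 433 in DMSO libraries. It fell to 0.586 of the DMSO mean (log2 change -0.76, SE 0.09, adjusted p = 4.32e-07). MRPS27 (ENSG00000113048, chromosome 5), a mitochondria-specific protein of the pentatricopeptide repeat family of RNA binding proteins, had 907, 890 and 928 in PhenDC3 libraries and 1348, 1399 and 1418 in DMSO libraries. The PhenDC3 libraries of both genes lay well below the DMSO range, and MRPS27 changed by -0.61 (SE 0.06, adjusted p = 8.73e-08). MRPS9, whose bacterial counterpart reaches the peptidyl site with its tail, averaged 245 ± 12 in PhenDC3 cells and 385 ± 46 in DMSO cells (log2 change -0.64, adjusted p = 1.08e-05). MRPS26, MRPS33, MRPS5, MRPS15, MRPS11, MRPS28, MRPS36, MRPS16, MRPS31 and MRPS22 were the other small subunit genes that fell, with log2 changes between -0.57 and -0.22. Of these, the call of MRPS31 was lost in DESeq2 and the authors' deposited table (adjusted p = 0.119 there), with thinned reads, upper quartile scaling or no variance trend, and without DMSO replicate 2 or 3 or PhenDC3 replicate 1 or 3. That of MRPS22 was lost with upper quartile scaling, with no variance trend and without PhenDC3 replicate 1, and that of MRPS28 with thinned reads.

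MRPS36 is a special case, since the protein is now regarded as a subunit of the 2-oxoglutarate dehydrogenase complex and not of the ribosome. It had 120, 137 and 133 in PhenDC3 libraries and 159, 162 and 163 in DMSO libraries (log2 change -0.32, SE 0.11, adjusted p = 0.0191 by limma). The call was lost in DESeq2 (adjusted p = 0.103), without DMSO replicate 2 (adjusted p = 0.0575) and without PhenDC3 replicate 1 (adjusted p = 0.0716). MRPS30, placed in the large subunit by structure despite its symbol, had 489, 578 and 512 in PhenDC3 libraries and 595, 576 and 570 in DMSO libraries. The groups overlapped, and its log2 change of -0.15 (SE 0.08, adjusted p = 0.124) passed the test with TMM scaling (adjusted p = 0.0492) and without PhenDC3 replicate 2 (adjusted p = 0.0355).

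The 3 human paralogs of bacterial S18, which occupy different places in the mitochondrial ribosome, did not pass the test. MRPS18A had 244, 202 and 269 in PhenDC3 libraries and 198, 209 and 223 in DMSO libraries (log2 change 0.18, SE 0.11, adjusted p = 0.175 by limma). MRPS18B had 733, 698 and 716 in PhenDC3 libraries and 623, 651 and 772 in DMSO libraries (log2 change 0.08, SE 0.08, adjusted p = 0.443). Both genes overlapped between the groups. MRPS18C had 194, 194 and 193 in PhenDC3 libraries, all below the 233, 208 and 217 of the DMSO libraries (log2 change -0.18, SE 0.10, adjusted p = 0.12). MRPS18B passed the test as higher without DMSO replicate 3 (adjusted p = 0.0368), and MRPS18A did so without PhenDC3 replicate 2 (adjusted p = 0.0298). Exon bases shared with a gene on the opposite strand make up 47.0% of MRPS18A and 40.2% of MRPS18C, and the sources used here do not give the strand setting of the counting. MRPS12, a protein of the decoding centre, had 381, 351 and 400 in PhenDC3 libraries and 334, 309 and 413 in DMSO libraries. Its groups overlapped through DMSO replicate 3 (log2 change 0.11, SE 0.10, adjusted p = 0.366), without which it passed as higher (adjusted p = 0.0267).

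The 5 tested members that rose were MRPL53, MRPL28, MRPL38, MRPL49 and MRPS25. MRPL28 (ENSG00000086504, chromosome 16), the counterpart of bacterial L28, had normalized counts of 1180, 1011 and 1068 in PhenDC3 libraries, against 735, 858 and 895 in DMSO libraries. The groups did not overlap, and the mean was 1.31 times the DMSO mean (log2 change 0.39, SE 0.08, adjusted p = 0.000348 by limma). MRPS25, a mitochondria-specific small subunit protein, had 973, 935 and 993 in PhenDC3 libraries and 797, 847 and 810 in DMSO libraries. Its log2 change was 0.24 (SE 0.07, adjusted p = 0.00464), and 22.2% of its exon bases are shared with NR2C2 on the opposite strand. MRPL49, a mitochondria-specific large subunit protein, had 612, 585 and 649 in PhenDC3 libraries and 479, 515 and 542 in DMSO libraries (log2 change 0.27, SE 0.08, adjusted p = 0.00653), and the call was lost without PhenDC3 replicate 3 (adjusted p = 0.0517).

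MRPL53 (ENSG00000204822, chromosome 2), a mitochondria-specific large subunit protein, showed the largest rise among the tested members, from a low level. It had 60.4, 59.5 and 60.4 normalized counts in PhenDC3 libraries, against 28.02, 30.2 and 26.2 in DMSO libraries. These values rest on 51, 40 and 46 reads in PhenDC3 libraries and 36, 39 and 38 reads in DMSO libraries. The mean was 2.14 times that of DMSO (log2 change 1.07, SE 0.18, adjusted p = 2.7e-05 by limma). On the same strand, 45.2% of its exon bases are shared with CCDC142, which averaged 151 ± 5.2 in PhenDC3 cells and 88.9 ± 7.1 in DMSO cells (log2 change 0.76, adjusted p = 1.87e-05), so the reads of the pair may have been split in counting. MRPL38, a mitochondria-specific protein of the central protuberance, had 121, 93.8 and 125 in PhenDC3 libraries and 98.8, 81.2 and 87.6 in DMSO libraries. The groups overlapped, and its log2 change of 0.33 (SE 0.14, adjusted p = 0.0483) lost its call in DESeq2, with TMM scaling and when any of 4 single libraries was left out, with adjusted p up to 0.181. The call of MRPL38 was also lost with no filter on low values and with no variance trend. MRPL30, which was not tested, had 5, 3 and 6 reads in PhenDC3 libraries and 1, 2 and 1 in DMSO libraries. The ratio was 6.19 per unit of normalized depth, with an exact 95% interval of 1.94 to 25.8 that covers counting error only. On the same strand, 19.5% of the MRPL30 exon bases are shared with other coding gene models, so its reads could have been left out in counting.

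**Figure D2:**
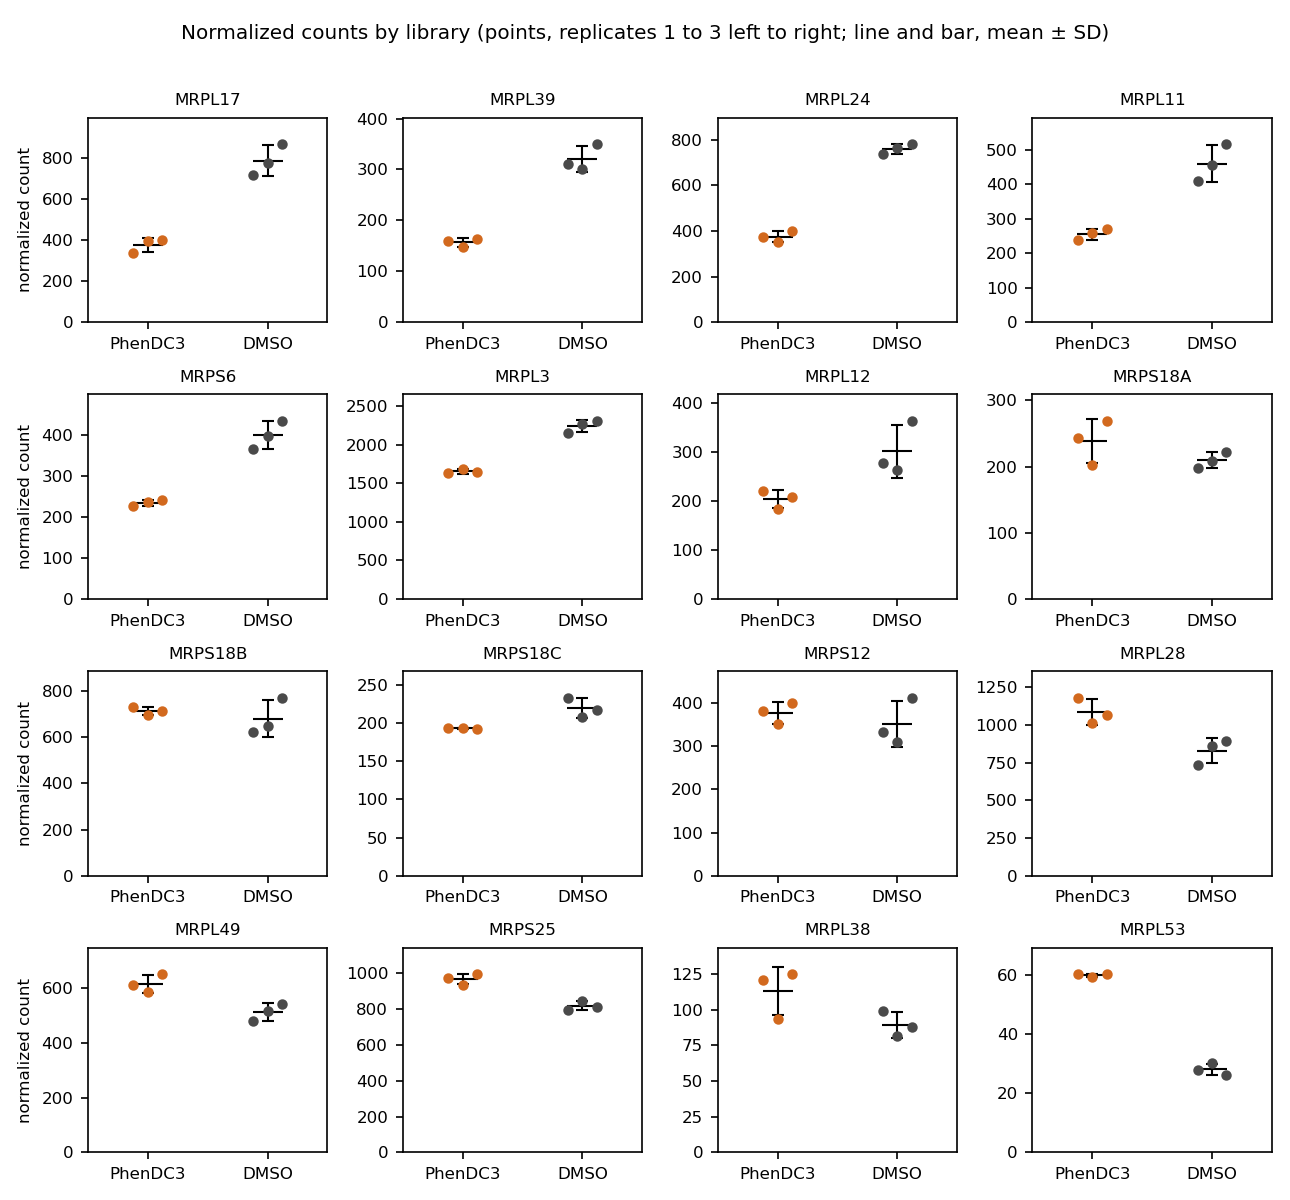
Normalized counts (y axes, from 0) of 16 members in each PhenDC3 library and each DMSO library, with replicates 1 to 3 left to right in each group and bars at the mean ± SD. The groups are clearly apart for MRPL17, MRPL39, MRPL24, MRPL11, MRPS6 and MRPL3, overlap for MRPS18A, MRPS18B, MRPS12 and MRPL38, and are reversed in order for MRPL28, MRPL49, MRPS25 and MRPL53.

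The subunits were set side by side. Of 47 large subunit genes 30 were lower and 4 higher in PhenDC3 cells, with a median log2 change of -0.28, and of 28 small subunit genes 13 were lower and 1 higher, with a median of -0.19. The difference of the medians, large minus small, was -0.09, and leaving out single libraries moved it between -0.10 and -0.04, the smallest difference being that without DMSO replicate 3. Without DMSO replicate 2 or PhenDC3 replicate 2 it was -0.06. Members are not replicates of a subunit, so this difference has no test. The summed large subunit counts were 0.795 of the DMSO mean and the summed small subunit counts 0.860 of it. The ratio of the large to the small subunit sum was 1.54, 1.52 and 1.57 in the PhenDC3 libraries and 1.66, 1.66 and 1.68 in the DMSO libraries. Every PhenDC3 library lay below every DMSO library in this ratio, including against DMSO replicate 1 or 2 alone, and with 3 libraries a group the smallest p that an exact two-sided permutation test can give is 0.1. When subunits were assigned by structure, the large subunit had 30 lower and 4 higher of 49 and the small subunit 12 lower and 1 higher of 25, with medians of -0.27 and -0.20. By structure, 69.4% of the large and 52.0% of the small subunit genes were called. Genes with a bacterial counterpart had 26 lower and 1 higher of 44 (median -0.27), and mitochondria-specific genes had 17 lower and 4 higher of 31 (median -0.24). Their shares called were 61.4% and 67.7%, beside the 59.6% of all tested genes.

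The members were also split by the share of exon bases they have in common with other genes, at 15%, a split chosen after seeing the data. In the 60 tested members with under 15% of exon bases shared, 39 were lower and 2 higher, with a median log2 change of -0.28. In the 15 tested members with 15% or more shared, 4 were lower (26.7%) and 3 higher (20.0%), with a median of -0.10. Among all tested genes 30.4% were lower and 29.2% higher. The 3 that were higher include MRPL38, whose groups overlapped. Whether counting of shared bases had a part in these calls was not tested.

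**Figure D3:**
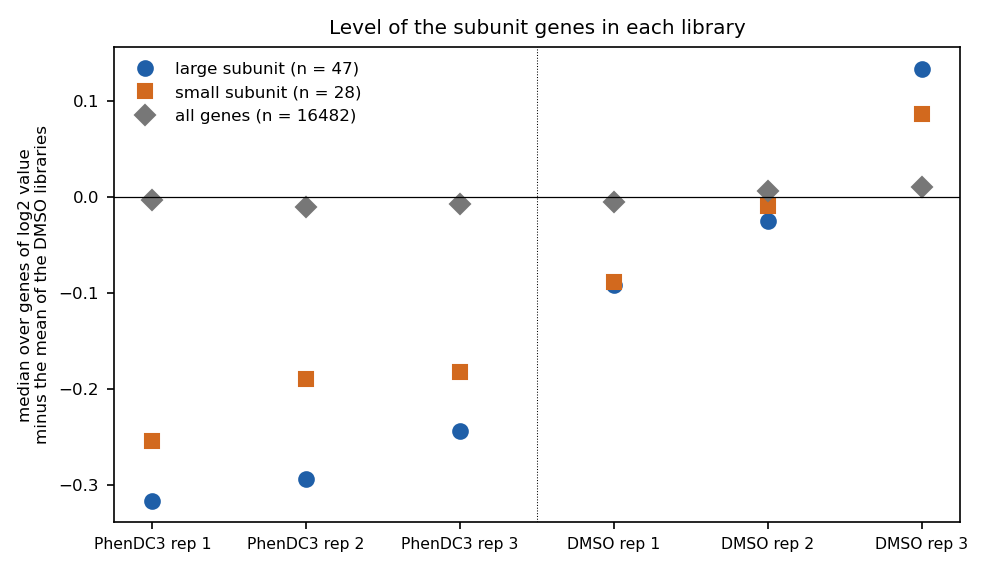
Median over genes of the log2 value in each library minus the mean log2 value of the DMSO libraries, for large subunit genes (circles), small subunit genes (squares) and all tested genes (diamonds), with PhenDC3 libraries left and DMSO libraries right. Large subunit medians are -0.32, -0.29 and -0.24 in the PhenDC3 libraries and -0.09, -0.03 and 0.13 in the DMSO libraries, while the medians of all tested genes lie between -0.01 and 0.01.

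Without DMSO replicate 3, 37 members were lower and 6 higher, and the median log2 change was -0.20. The calls of MRPL34, MRPL36, MRPL10, MRPL50, MRPS31, MRPL38 and MRPL22 were lost without it, and MRPS12 and MRPS18B passed as higher. In the large subunit 25 of 47 genes were then lower and in the small subunit 12 of 28. These counts are given without the share of all genes called in the same fit. A change in them therefore cannot be told apart from a change over all genes. DMSO replicate 3 exceeded the mean of the other DMSO libraries by a median of 0.19 on the log2 scale over the members and 0.01 over all tested genes. The largest such excess was that of MRPL23 at 0.48. Cytosolic ribosomal protein genes and nuclear respiratory chain genes had the same median excess, 0.21. Their transcripts, like those of the members, are short, with a median length of 899 and 958 bases, 1369 bases for the members and 2601 bases for all tested genes. Across 12282 protein-coding genes of this 1 library, the excess had a Spearman rho of -0.51 with transcript length, and over the members a rho of -0.37, as descriptions across genes that share 1 library. The log2 change of PhenDC3 over DMSO had a rho of 0.10 with length across the same coding genes and of 0.20 over the members. Transcripts of the large subunit genes had a median length of 1182 bases and those of the small subunit genes 1592.5 bases. The part of transcript length in the members' change, or in the difference between the subunits, was not tested.

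The rRNA partners of these proteins went the other way. The summed normalized count of the mitochondrial rRNAs was 905863 ± 4574 in PhenDC3 cells and 26464 ± 1364 in DMSO cells, a ratio of 34.2 (SD, n = 3 each). Set against the members' own sum, this was 27.98 ± 0.56 rRNA counts per ribosomal protein count in PhenDC3 cells and 0.67 ± 0.016 in DMSO cells. The ratio lay between 27.4 and 28.4 in the PhenDC3 libraries and between 0.652 and 0.681 in the DMSO libraries. Poly(A) selection takes rRNA only in part, and its yield was not tested. Leaving the mitochondrially encoded genes out of the fit changed none of the members' calls.

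Subunits that carry other symbols were mixed. PTCD3, a pentatricopeptide repeat protein of the small subunit, had 1027, 1085 and 1039 normalized counts in PhenDC3 libraries, against 820, 844 and 822 in DMSO libraries, and rose (log2 change 0.34, SE 0.07, adjusted p = 0.000176 by limma). CHCHD1 averaged 221 ± 22 in PhenDC3 cells and 289 ± 13 in DMSO cells and fell (log2 change -0.39, adjusted p = 0.00197). DAP3, the GTP-binding small subunit protein, averaged 931 ± 42 in PhenDC3 cells and 1132 ± 75 in DMSO cells and also fell (log2 change -0.28, adjusted p = 0.00206). AURKAIP1 and GADD45GIP1 did not pass, with log2 changes of -0.05 and -0.06.

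Of 25 genes that assemble the mitochondrial ribosome or modify its rRNA, 11 were lower and 3 higher, with a median log2 change of -0.15. The share called, 56.0%, was near the 59.6% of all tested genes. TFB1M, the methyltransferase that dimethylates adenines of the small subunit rRNA, had 69.8, 77.4 and 69.5 in PhenDC3 libraries and 213, 212 and 224 in DMSO libraries. It fell to 0.334 of the DMSO mean (log2 change -1.57, SE 0.12, adjusted p = 4.41e-10), a larger change than that of any of the 75 tested members. MPV17L2, an inner membrane protein needed for assembly of the ribosome, averaged 59.1 ± 2.5 in PhenDC3 cells and 115 ± 10 in DMSO cells (log2 change -0.94, adjusted p = 6.23e-06). MTG2, a GTPase of large subunit assembly, had 595, 601 and 537 in PhenDC3 libraries and 391, 392 and 422 in DMSO libraries, and rose (log2 change 0.52, SE 0.08, adjusted p = 1.21e-05). Of 19 mitochondrial translation factors and related genes, 8 were lower and 1 higher, with a median of -0.11 and 47.4% called. The initiation factor gene MTIF3 averaged 122 ± 8.2 in PhenDC3 cells and 211 ± 15 in DMSO cells (log2 change -0.78, adjusted p = 4.03e-06). GTPBP3, which modifies the wobble base of mitochondrial tRNAs, changed by -0.47 (adjusted p = 0.000359), and C12orf65, a release factor homolog that rescues stalled ribosomes, was the gene that rose (log2 change 0.40, adjusted p = 0.00377).

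Lower calls also outnumbered higher ones in other lists of nuclear genes. Of 84 cytosolic ribosomal protein genes, 69 were lower and 2 higher (median log2 change -0.36), RPL3L being the larger rise, at 6.01. Of 77 tested genes for nuclear subunits of the respiratory chain and ATP synthase, 49 were lower and 3 higher (median -0.31). COX6B2, among the 3, also passed the filter only through the PhenDC3 libraries, with 14.6 ± 5.1 there and 4.25 ± 0.70 in DMSO cells. The shares called were 84.5% of the cytosolic ribosomal protein genes and 67.5% of the respiratory chain and ATP synthase genes. Of all tested genes 59.6% were called, 30.4% lower and 29.2% higher. The members' median of -0.25 was nearer to 0 than either, and the difference between the lists has no test.

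**Figure D4:**
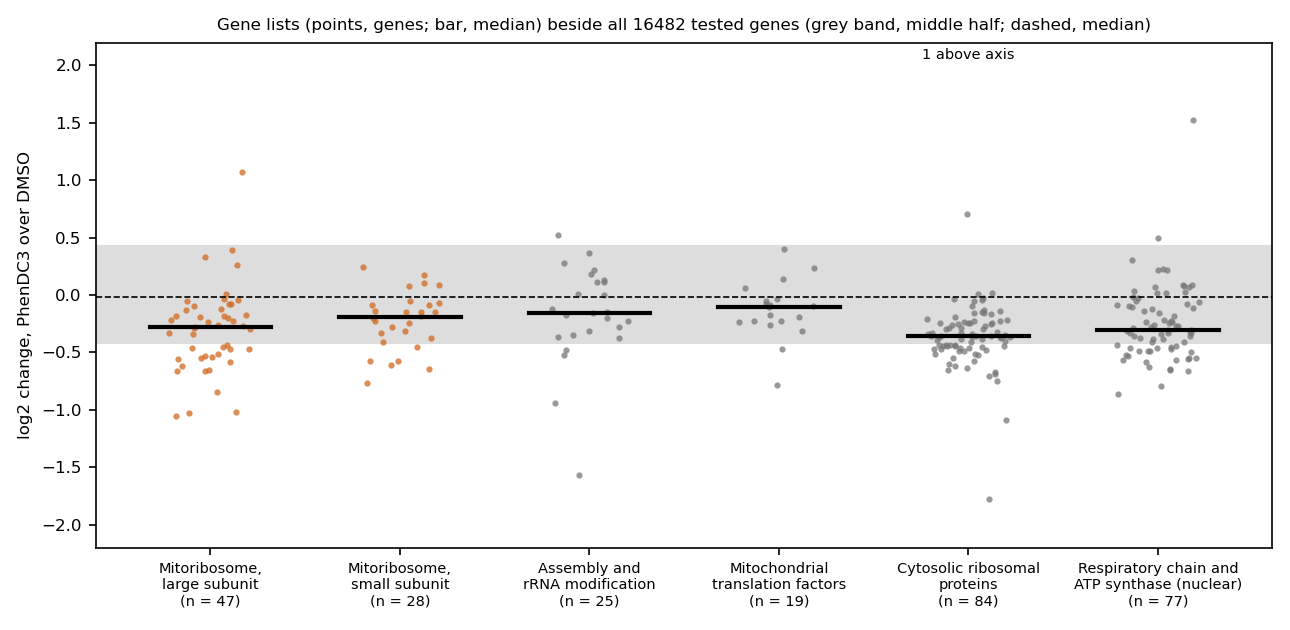
Log2 change in PhenDC3 cells over DMSO cells for the genes of 6 lists (points), with the median of each list as a bar, the range between the quartiles of all 16482 tested genes as a grey band and their median as a dashed line. The medians of all 6 lists lie below that of all tested genes, between -0.36 for cytosolic ribosomal proteins and -0.11 for mitochondrial translation factors, and RPL3L lies above the axis.

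Promoters of the members were read from RefSeq (GRCh38.p14), as 250 bases before to 50 bases after the first listed start of each gene, and 67 of the 76 members were matched. No entry was used for MRPL10, MRPL13, MRPL15, MRPL2, MRPL21, MRPL23, MRPL35, MRPS28 and MRPS36. Motifs were searched as exact letters on both strands and were chosen, like the sequences shown, after the members' values were seen. CCGGAAG, the core bound by ETS family factors such as GABP, was in 28 promoters, 41.8% of the members against 19.4% of 9704 promoters of tested coding genes. AAGATGGC, the core bound by YY1, was in 19, 28.4% against 5.51%. One or both were in 39, 58.2% against 23.5%. GABP, YY1 and NRF1 are known regulators of nuclear genes for mitochondrial proteins. The NRF1 core was in 7, 10.4% against 11.8%. A G quadruplex motif, taken as 4 stretches of at least 3 G that are 1 to 7 bases apart, was in 12, 17.9% against 34.3%.

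The 6 tested members with an NRF1 core were MRPL17, MRPS9, MRPL57, MRPS33, MRPL14 and MRPL36, and all 6 were lower in PhenDC3 cells, with a median log2 change of -0.58. The seventh member with the core, MRPL30, was not tested by limma and went the other way, with every PhenDC3 library above every DMSO library (log2 fold change 2.62, adjusted p = 0.0424 in the authors' deposited table). Of 60 matched and tested members without it, 30 were lower and 5 higher, with a median of -0.21. Among 1148 tested coding genes with the same core 35.6% were lower, and among those without it 34.4% were, with a median of -0.03 in each. MRPL36 lost its call in DESeq2, with upper quartile scaling or no variance trend, and without DMSO replicate 3 or PhenDC3 replicate 2 or 3. Members with the ETS core, 27 of them tested, had 15 lower and 3 higher (median -0.25), and the 19 with the YY1 core had 9 lower and 1 higher (median -0.20). Among tested coding genes with the ETS core 33.1% were lower and 30.4% higher, and among those with the YY1 core 28.8% were lower and 31.8% higher. The 12 with a G quadruplex motif had 5 lower and 2 higher (median -0.12), and the 54 tested members without it had 31 lower and 3 higher (median -0.24). Those with the motif that were lower were MRPL24, MRPS6, MRPL18, MRPS33 and MRPL14, and those that were higher were MRPL28 and MRPL38. MRPL39 and MRPL11 held none of the motifs searched. Among tested coding genes with this motif 32.7% were lower and 34.6% higher. Across tested coding genes the medians were 0.01 with this motif and -0.05 without it. A match describes letters in the window and does not show binding.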

How the data were processed

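The deposited signal of each library is its gene read counts over a size factor set by the authors, which returns whole reads for 100% of values within a relative tolerance of 1e-06. The deposited log2 fold change and adjusted p-value are the authors', of PhenDC3 over DMSO. The submitters' processing notes name TopHat2 2.0.11, Cufflinks 2.2.1, STAR 2.7, featureCounts, DESeq2 1.18.1 and hg19, without saying which made the table. The labels do not say whether replicates were separate cultures, and p-values may then reflect technical spread alone.

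Here limma 3.58.1 (R 4.3.3) with a variance trend was fitted to log2(value + 1) for genes with a mean of 5 or more, two-sided, with Benjamini-Hochberg adjustment over 16482 genes and a threshold of 0.05. The pseudocount understates the change of low genes. Alternatives included DESeq2 1.42.0 and edgeR 4.0.16, run on recovered reads. Named genes are the 8 largest rises (5 were called) and 12 largest falls among called members, members fixed by name, the extremes of level and the leading factor genes; MRPL10, MRPL58, MRPL42, MRPL33, MRPS17, MRPL23, members whose calls were lost, the promoter examples and the overlapping genes were named after their values were seen. The members and lists were chosen with earlier results of these data known. GENCODE 29 (GRCh38) gave gene types, chromosomes, lengths and exon overlaps. Limma was also run on simulated reads with few changed genes and no library that stood apart. That run does not show how it performs on data like these.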

Additional observations from a re-analysis of the deposited data

How the results depend on the processing

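Of the tested members, limma called 48 (43 lower, 5 higher), edgeR 47 (42 lower, 5 higher, where 63.0% of genes it tested were called) and DESeq2 41 (36 lower, 5 higher, where 39.0% were called). The authors' deposited table also called 41, of which 40 were called by limma, all with the same sign, and the other was MRPL30. Scaling by TMM gave 51, upper quartile scaling 41, reads thinned to the total of the shallowest library 44 (mitochondrially encoded reads included, so that nuclear depth stayed unequal) and a fit with no variance trend 39. Calls over all genes also moved, with 9876 under TMM scaling, 9013 with thinned reads and 8936 with no variance trend, against 9818 in the fit in the text. Every call shared with the fit in the text had the same sign under each alternative run. Leaving out single libraries gave 41 to 49 members called and a median log2 change over the members of -0.29 to -0.20. The difference of medians, large minus small subunit, was then -0.103 to -0.043, against -0.09 with all libraries. For these runs, upper quartile scaling and the replicate block below, calls over all genes are not given here. The members' counts in them therefore stand without that share. Among the 60 members with under 15% of exon bases shared, an alternative chosen after seeing the data, 39 were lower and 2 higher.

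With the replicate number as a block 50 members were called (45 lower, 5 higher). The labels do not say that numbers pair the libraries, and same-numbered libraries had residual correlations of 0.0079, 0.071 and 0.027. Read number limits MRPL30 most, with 14 reads in PhenDC3 cells and 4 in DMSO cells. As given above, it also shares exon bases with other coding gene models, so reads could have been left out in counting.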

Other observations

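Noncoding neighbours of the members, named here after their values were seen, moved against the coding gene in some cases. MRPL20 fell (log2 change -0.62), whereas the divergent transcript MRPL20-DT averaged 77.5 ± 15 normalized counts in PhenDC3 cells and 33.1 ± 4.4 in DMSO cells and rose (log2 change 1.19, adjusted p = 9.92e-06 by limma, n = 3 each). LOC148413, on the opposite strand and overlapping 4.99% of the MRPL20 exon bases, had 381, 386 and 366 in PhenDC3 libraries and 200.02, 206 and 224 in DMSO libraries (log2 change 0.85, adjusted p = 9.28e-08). Reads in those shared bases cannot be assigned to either gene without the strand setting of the counting. Beside MRPS30, which did not pass the test, MRPS30-DT had 14.2, 19.4 and 14.4 in PhenDC3 libraries and 5.45, 3.09 and 6.90 in DMSO libraries (log2 change 1.51, adjusted p = 0.00126). The pseudogene MRPS36P1 averaged 9.05 ± 2.4 in PhenDC3 cells and 21.7 ± 4.0 in DMSO cells (log2 change -1.19, adjusted p = 0.00178), while MRPS36 itself changed by -0.32.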
